A study of Mus musculus with 12 samples.

Results

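The genes of the unfolded protein response and of protein folding in the endoplasmic reticulum (ER) were described here as 34 members, picked by gene name out of 18068 genes in the count table. The rule that picks them uses names only, but they were proposed with earlier results of these data known. By role they fell into 5 sensors and their transcription factors, 15 chaperones and folding enzymes, 8 genes of translocation and degradation, and 6 genes of the ATF4 branch. All 34 had a row in the table and 33 passed the filter on low counts. The exception was Derl3, a derlin of the degradation channel, with 0 to 4 counts per library, for which no test was made.

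The unfolded protein response starts from the ER membrane sensors IRE1, ATF6 and PERK, which are switched on when unfolded protein builds up in the ER. IRE1 splices the mRNA of the transcription factor XBP1, ATF6 is cut to release a transcription factor of its own, and PERK phosphorylates a translation initiation factor, which lowers most translation and raises that of ATF4. XBP1 and ATF6 drive chaperone and degradation genes, whereas ATF4, which other stress kinases such as GCN2 also raise, drives amino acid synthesis genes and the stress genes Ddit3, Trib3 and Chac1. In the gut, goblet and Paneth cells secrete large amounts of protein and depend on these pathways. Splicing of Xbp1, cleavage of ATF6 and phosphorylation by PERK cannot be read from gene counts.

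The samples were ileal enteroids, cultures of intestinal epithelial cells, from wild-type C57Bl/6 mice, with 3 libraries in each of 4 groups. The groups were butyrate + IL-13, IL-13 alone, butyrate alone, and untreated. IL-13, a cytokine of type 2 immunity that signals through STAT6, was given at 20 ng/mL for 72 h. Butyrate, a short-chain fatty acid made by gut bacteria and an inhibitor of histone deacetylases, was given at 1 mM for 48 h, and untreated enteroids had neither agent. No group carried an engineered allele, and the sources used here do not give the timing of the agents relative to each other in the combined group. The labels do not say whether replicates were separate cultures or mice, so every p-value here is relative to the spread of the libraries at hand, which may be technical.

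Library totals were 13867982 to 15618074 counts with butyrate + IL-13, 14239405 to 15008598 with IL-13, 17006538 to 24294456 with butyrate and 16303915 to 22558599 untreated. Levels are given as CPM, counts per 1000000 of a library total adjusted by the TMM method, which allows for differences in RNA composition. The members took 0.748% to 0.889% of all counts in a library. Replicates of a group differed by more than sampling noise in every pair, with a chi-square per degree of freedom of 3.82 to 35.8. Butyrate + IL-13 replicate 3 and butyrate replicate 2 stood apart in Lars2, with 6983 and 5048 CPM. The other 10 libraries had 422.8 to 1434 CPM of it. The epithelial genes Epcam, Cdh1, Krt8, Krt18, Vil1 and Cdx2 summed to 5709 to 8058 CPM over the 12 libraries. Marker genes of immune cells summed to 22.7 to 28.7 CPM, of mesenchymal cells to 2.27 to 6.10 CPM and of endothelial cells to 0.499 to 1.36 CPM. Most of the immune sum came from Csf1r and Itgam, with group means of 16.5 to 18.6 and 7.79 to 8.60 CPM. Pdgfrb averaged 1.43 to 3.45 CPM and Pecam1 0.478 to 1.14 CPM. By contrast Ptprc, Col1a1 and Cdh5 each averaged under 0.5 CPM in every group.

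Between 10 and 19 of the 33 tested members changed in each pairwise comparison, at an adjusted p under 0.05 over all 13750 genes tested. With IL-13 over untreated, 13 rose and 6 fell, where 21.8% of all tested genes rose and 21.7% fell. With butyrate over untreated, 10 rose and 0 fell by edgeR, where 5.14% of all tested genes rose and 2.76% fell. At an unadjusted p under 0.05, 3 members were lower with butyrate, and DESeq2 called 1 member lower. With butyrate + IL-13 over IL-13, 12 rose and 2 fell, where 9.85% rose and 11.3% fell. With butyrate + IL-13 over butyrate, 14 rose and 5 fell, where 22.9% rose and 24.9% fell. The median log2 fold change of the members was close to 0 in each, at -0.02, 0.04, 0.09 and 0.06 in that order, beside -0.01, -0.01, -0.01 and -0.04 over all genes tested.

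**Figure D1:**
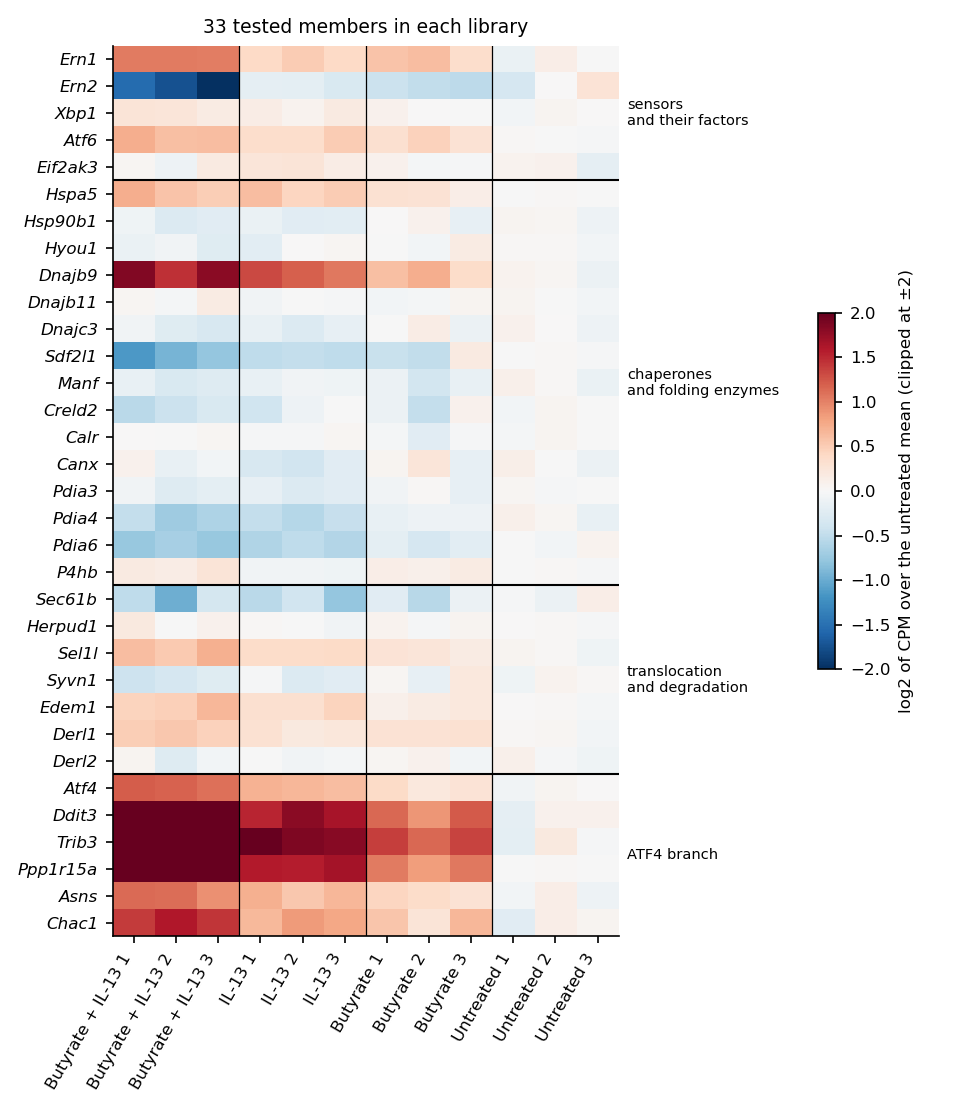
Each cell is the log2 ratio of a member's CPM in a library to its mean in untreated enteroids, with the 33 tested members in rows by role and the 12 libraries in columns. The colour scale is clipped at 2 on either side, so higher ratios of Trib3, Ddit3 and Ppp1r15a share the darkest red. The ATF4 branch and Dnajb9 are red in all 9 treated libraries, Ern2 is darkest blue with butyrate + IL-13, and most chaperones stay pale.

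These counts depend on how libraries are scaled, because the TMM factors were 0.876 to 0.906 with butyrate + IL-13, 0.972 to 0.979 with IL-13, 1.04 to 1.05 with butyrate and 1.08 to 1.11 untreated. Scaled by library total alone, the median log2 fold change of all genes moved to -0.18 for IL-13 over untreated, -0.08 for butyrate over untreated, -0.14 for butyrate + IL-13 over IL-13 and -0.27 for butyrate + IL-13 over butyrate. The members then numbered 12 higher and 13 lower, 8 higher and 1 lower, 8 higher and 5 lower, and 8 higher and 15 lower in the same comparisons. All genes tested numbered 1822 higher and 4651 lower, 505 higher and 569 lower, 659 higher and 2689 lower, and 1691 higher and 5793 lower. Changes below are relative to the TMM scale, and small changes can take the other sign without it. With library totals alone the sign turned for 1 member with IL-13 over untreated (Xbp1), 8 with butyrate over untreated, 6 with butyrate + IL-13 over IL-13 and 7 with butyrate + IL-13 over butyrate. Of these 22 values, Xbp1 and Derl1 over butyrate were called on the TMM scale, and P4hb over butyrate was called with library totals alone.

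The ATF4 branch rose as a group. All 6 of its genes were higher in every pairwise comparison, with a median log2 fold change of 1.18 for IL-13 over untreated, 0.74 for butyrate over untreated, 0.71 for butyrate + IL-13 over IL-13 and 1.13 for butyrate + IL-13 over butyrate. Their summed level was 2659 to 2992 CPM with butyrate + IL-13, 1857 to 1924 CPM with IL-13, 1335 to 1516 CPM with butyrate and 959.6 to 1084 CPM untreated, so no group overlapped another. In bulk samples such as these, fewer cells of a type and less RNA per cell cannot be told apart. The epithelial marker genes also differed between groups, summing to 7932 to 8058 CPM with butyrate + IL-13, 6714 to 6866 CPM with IL-13, 5846 to 6503 CPM with butyrate and 5709 to 5917 CPM untreated. Stem and cycling markers, 5 genes with Mki67 and Top2a the highest, summed to 114.0 to 128.4 CPM with butyrate + IL-13, 160.6 to 223.8 CPM with IL-13, 390.6 to 511.2 CPM with butyrate and 471.2 to 480.3 CPM untreated. Enteroendocrine markers, 5 genes, summed to 158.0 to 287.5 CPM with butyrate + IL-13, 1141 to 1235 CPM with IL-13, 430.7 to 527.8 CPM with butyrate and 982.4 to 1313 CPM untreated. The part of these cell types in the rise of the ATF4 branch was not tested.

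Trib3 (chr2:152337422-152344032, minus strand, mm10 as in the deposited table), a pseudokinase that binds AKT and is a target of ATF4 and CHOP, had the largest change of any member in each of the comparisons with untreated enteroids. It stood at 516.3, 549.1 and 390.6 CPM with butyrate + IL-13, 287.9, 257.1 and 248.6 CPM with IL-13, 183.3, 156.5 and 178.7 CPM with butyrate, and 61.2, 81.0 and 69.0 CPM untreated. Every library of a group lay above every library of the next. The log2 fold change was 1.91 ± 0.12 (SE) for IL-13 over untreated (edgeR adjusted p 1.2e-09) and 1.30 ± 0.12 for butyrate over untreated (edgeR adjusted p 2.9e-06). Butyrate + IL-13 exceeded IL-13 by 0.88 ± 0.12 (edgeR adjusted p 6.5e-05) and butyrate by 1.49 ± 0.12 (edgeR adjusted p 1.5e-08).

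Ddit3 (chr10:127290774-127296288, plus strand), which encodes the transcription factor CHOP, stood at 272.3, 283.0 and 279.5 CPM with butyrate + IL-13, 154.9, 188.2 and 169.1 CPM with IL-13, 119.8, 98.6 and 125.5 CPM with butyrate, and 47.3, 57.2 and 56.9 CPM untreated. The 4 groups did not overlap. It was 3.18-fold higher with IL-13 than untreated (log2 1.67 ± 0.10, edgeR adjusted p 6.8e-10) and 2.13-fold higher with butyrate than untreated (log2 1.09 ± 0.10, edgeR adjusted p 2.8e-06). Ddit3 lies across from Mars on the opposite strand, and the sources used here do not state whether strand entered the counting, so reads from their shared stretch cannot be told apart.

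Ppp1r15a (chr7:45522916-45526268, minus strand) encodes GADD34, the phosphatase subunit that reverses the translation block set by PERK. Its levels were 156.7, 127.8 and 114.5 CPM with butyrate + IL-13, 73.1, 72.9 and 77.3 CPM with IL-13, 50.1, 43.7 and 50.6 CPM with butyrate, and 24.3, 24.8 and 24.2 CPM untreated. The untreated libraries were within 1 CPM of each other and lay below every other library. The change was 3.05-fold for IL-13 over untreated (log2 1.61 ± 0.11, edgeR adjusted p 1.7e-09), 1.97-fold for butyrate over untreated (log2 0.98 ± 0.11, edgeR adjusted p 1.6e-05) and 2.76-fold for butyrate + IL-13 over butyrate (log2 1.47 ± 0.10, edgeR adjusted p 2.6e-09).

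Atf4 itself (chr15:80255184-80257540, plus strand), the transcription factor after which the branch is named, changed less on the log2 scale than the 3 genes above. It stood at 1474, 1446 and 1362 CPM with butyrate + IL-13, 1026, 1007 and 974.4 CPM with IL-13, 832.3, 738.3 and 770.0 CPM with butyrate, and 606.6, 659.8 and 640.5 CPM untreated. Again no group overlapped another. IL-13 over untreated gave 0.66 ± 0.08 (edgeR adjusted p 1.3e-06) and butyrate + IL-13 over butyrate 0.87 ± 0.08 (edgeR adjusted p 3.1e-08). Butyrate over untreated gave 0.30 ± 0.07 (edgeR adjusted p 0.019), a call lost on leaving out replicate 1 or 3 of the untreated libraries or replicate 1 of butyrate (adjusted p 0.084, 0.07 and 0.12) and with scaling by library total alone (adjusted p 0.07).

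Chac1 (chr2:119351229-119354381, plus strand), an enzyme that breaks down glutathione, stood at 218.1, 250.9 and 222.9 CPM with butyrate + IL-13, 129.6, 149.1 and 141.6 CPM with IL-13, 122.3, 99.1 and 131.4 CPM with butyrate, and 71.1, 91.4 and 86.4 CPM untreated. Only the IL-13 and butyrate groups overlapped. The log2 fold change was 0.76 ± 0.11 for IL-13 over untreated (edgeR adjusted p 2.5e-05), 0.50 ± 0.11 for butyrate over untreated (edgeR adjusted p 0.0071) and 0.97 ± 0.11 for butyrate + IL-13 over butyrate (edgeR adjusted p 9.9e-07).

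Asns (chr6:7675169-7693254, minus strand), asparagine synthetase, stood at 340.5, 335.2 and 290.0 CPM with butyrate + IL-13, 252.6, 225.5 and 245.6 CPM with IL-13, 208.3, 199.3 and 188.4 CPM with butyrate, and 149.3, 169.8 and 144.7 CPM untreated. Its 4 groups did not overlap. The change with IL-13 over untreated was a log2 fold change of 0.64 ± 0.09 (edgeR adjusted p 1.1e-05) and butyrate over untreated 0.36 ± 0.09 (edgeR adjusted p 0.014). The second call was lost on leaving out those same 3 libraries, each in turn (edgeR adjusted p 0.06, 0.094 and 0.081).

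**Figure D2:**
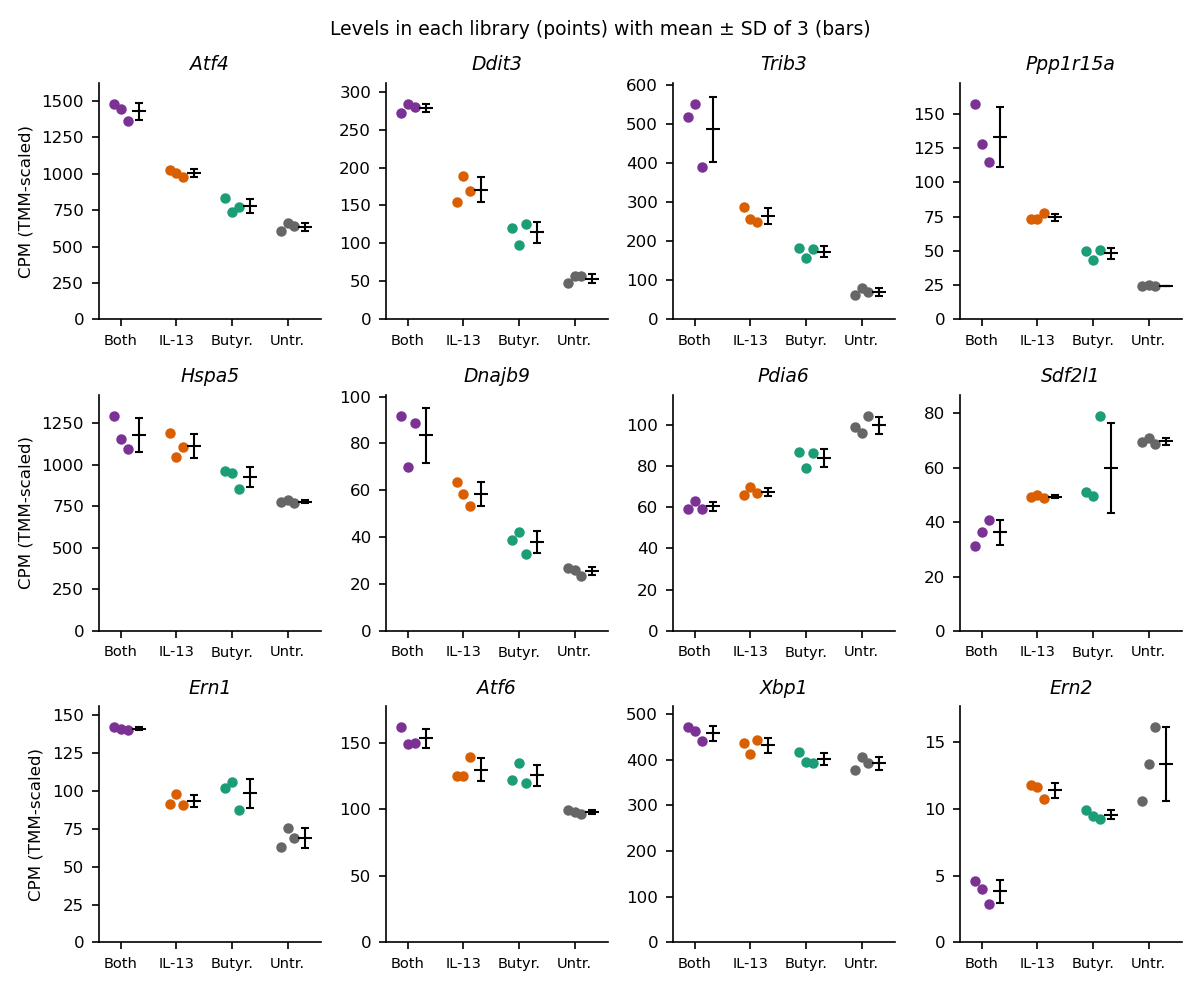
CPM of 12 members in each library, as points, with the mean and SD of the 3 libraries beside them, for butyrate + IL-13 (Both), IL-13, butyrate (Butyr.) and untreated (Untr.) enteroids. Atf4, Ddit3, Trib3, Ppp1r15a and Dnajb9 step down from left to right without overlap, Pdia6 steps up, and Ern2 is low with both agents.

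The promoters of 3 of the 6 ATF4 branch genes held the composite CEBP-ATF element (CARE), the sequence that ATF4 binds together with a CEBP protein. The search used TGATGNAA on either strand over 250 bases before to 50 bases after the RefSeq transcription start on GRCm38. It was present in 13.3% of the 30 windows of 29 members that RefSeq covered, against 3.97% of all 32851 windows. The promoters of Trib3 (chr2:152344011-152344310, minus strand), Chac1 (chr2:119350992-119351291, plus strand) and Asns (chr6:7693160-7693459, minus strand) are shown because they hold the motif and their genes rose with each agent. The capitals mark the match, which reads as the reverse complement in Trib3 and Chac1.
Trib3: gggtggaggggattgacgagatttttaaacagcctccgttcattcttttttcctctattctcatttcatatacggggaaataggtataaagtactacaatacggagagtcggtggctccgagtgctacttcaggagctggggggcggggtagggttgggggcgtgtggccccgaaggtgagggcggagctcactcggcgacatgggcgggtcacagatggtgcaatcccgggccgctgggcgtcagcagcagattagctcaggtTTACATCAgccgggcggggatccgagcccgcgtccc
Chac1: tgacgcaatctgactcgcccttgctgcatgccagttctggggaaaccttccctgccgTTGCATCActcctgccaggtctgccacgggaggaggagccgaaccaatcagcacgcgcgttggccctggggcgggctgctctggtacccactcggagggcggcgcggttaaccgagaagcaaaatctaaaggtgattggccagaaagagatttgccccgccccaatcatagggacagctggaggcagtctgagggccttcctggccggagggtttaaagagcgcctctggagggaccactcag
Asns: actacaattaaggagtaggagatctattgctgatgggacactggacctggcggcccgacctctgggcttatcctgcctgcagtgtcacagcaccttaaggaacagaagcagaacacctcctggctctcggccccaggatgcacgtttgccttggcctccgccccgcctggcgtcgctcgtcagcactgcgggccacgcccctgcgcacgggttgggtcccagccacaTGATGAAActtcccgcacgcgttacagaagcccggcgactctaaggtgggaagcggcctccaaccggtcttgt

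The match lay 14 to 21 bases after the start in Trib3, 193 to 186 bases before it in Chac1 and 23 to 16 bases before it in Asns. The windows of Atf4, Ddit3 and Ppp1r15a did not contain these letters. The fourth member with the motif was Herpud1, a degradation gene, which was not called in any comparison.

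Other targets of ATF4 and stress genes outside the members rose in larger number than they fell. Of 39 tested genes on that list, 20 rose and 5 fell with IL-13 over untreated, 12 rose with butyrate over untreated, 20 rose and 1 fell with butyrate + IL-13 over IL-13, and 21 rose and 3 fell with butyrate + IL-13 over butyrate. In that order 51.28%, 30.77%, 51.28% and 53.85% were higher, beside 21.8%, 5.14%, 9.85% and 22.9% of all tested genes. The shares lower were 12.82%, 0%, 2.564% and 7.692%, beside 21.7%, 2.76%, 11.3% and 24.9% of all tested genes. The median log2 fold change was 0.25, 0.24, 0.30 and 0.24 in these comparisons. Atf3, a stress-induced transcription factor, averaged 126.8 ± 4.71 CPM with butyrate + IL-13, 79.4 ± 5.64 with IL-13, 50.01 ± 7.72 with butyrate and 30.8 ± 1.68 untreated (SD, n = 3 each), and IL-13 over untreated gave 1.37 ± 0.11 on the log2 scale (edgeR adjusted p 9.6e-09). Gdf15, a secreted stress cytokine, averaged 637.4 ± 110.7, 401.1 ± 52.5, 164.0 ± 26.9 and 132.5 ± 12.99 CPM in the same groups. It rose with IL-13 over untreated by 1.60 ± 0.14 (edgeR adjusted p 3.7e-08), and butyrate over untreated gave 0.31 ± 0.13 (edgeR adjusted p 0.19). Cth, which makes cysteine, averaged 267.6 ± 20.0, 177.9 ± 11.6, 180.6 ± 18.8 and 113.4 ± 1.85 CPM in those groups and rose with either agent alone. Atf3, Gdf15 and Cth are named for the smallest adjusted p on the list with IL-13 over untreated. Amino acid synthesis genes of the list went both ways. Pycr1 averaged 36.2 CPM with IL-13 and 32.9 CPM untreated. Aldh18a1 averaged 184.0 and 258.5 CPM, Psat1 164.0 and 211.8 CPM, and Shmt2 80.8 and 113.0 CPM in these 2 groups.

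**Figure D3:**
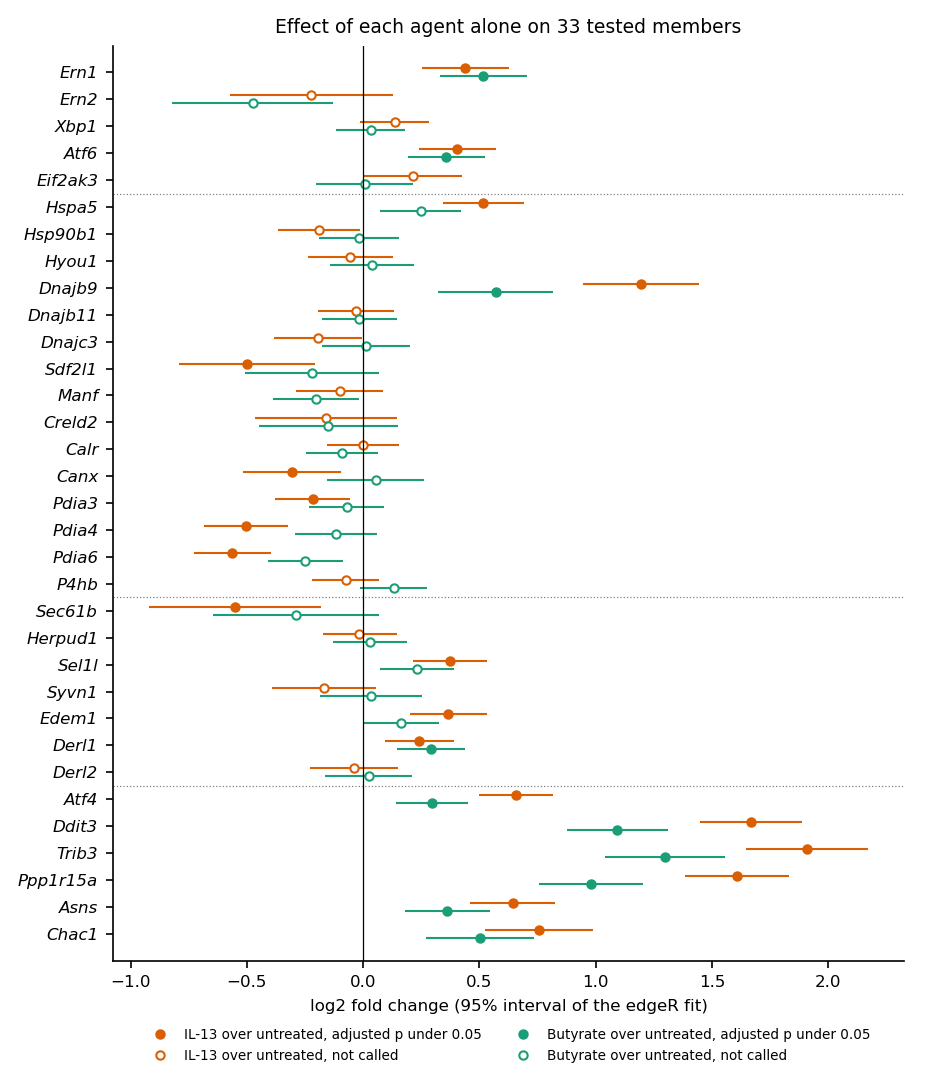
Points are log2 fold changes of the 33 tested members for IL-13 over untreated (orange) and butyrate over untreated (green), with 95% intervals of the edgeR fit, filled where the adjusted p was under 0.05. The 6 ATF4 branch genes at the bottom and Dnajb9 lie furthest to the right among the IL-13 points. Among the butyrate points Trib3, Ddit3 and Ppp1r15a do, and the filled points left of 0 are IL-13 only.

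Among the sensors, Ern1 and Atf6 rose with either agent while Eif2ak3 passed the threshold in none of the 4 comparisons. Ern1 (chr11:106394650-106487852, minus strand), which encodes the widely expressed sensor IRE1-alpha, stood at 141.9, 141.2 and 140.1 CPM with butyrate + IL-13, 91.3, 98.1 and 90.9 CPM with IL-13, 102.1, 105.9 and 87.6 CPM with butyrate, and 62.7, 75.4 and 68.6 CPM untreated. Every treated library was above every untreated library, and the IL-13 and butyrate groups overlapped each other. The log2 fold change was 0.44 ± 0.09 for IL-13 over untreated (edgeR adjusted p 0.00066), 0.52 ± 0.09 for butyrate over untreated (edgeR adjusted p 0.0011), 0.59 ± 0.09 for butyrate + IL-13 over IL-13 (edgeR adjusted p 0.00014) and 0.52 ± 0.09 for butyrate + IL-13 over butyrate (edgeR adjusted p 0.00011).

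Atf6 (chr1:170704457-170867771, minus strand) stood at 161.6, 148.9 and 149.8 CPM with butyrate + IL-13, 124.8, 125.0 and 139.6 CPM with IL-13, 122.0, 134.9 and 120.2 CPM with butyrate, and 99.6, 97.9 and 96.7 CPM untreated. The untreated libraries lay below all others. IL-13 over untreated gave 0.41 ± 0.08 (edgeR adjusted p 0.00043), butyrate over untreated 0.36 ± 0.08 (edgeR adjusted p 0.0072) and butyrate + IL-13 over butyrate 0.29 ± 0.08 (edgeR adjusted p 0.0056). Butyrate + IL-13 over IL-13 gave 0.24 ± 0.08 (edgeR adjusted p 0.036), a call lost in 9 of 21 alternatives, where the adjusted p reached 0.32. Among these were leaving out untreated replicate 2 or 3, butyrate replicate 1, IL-13 replicate 1 or 2, or butyrate + IL-13 replicate 1 (edgeR adjusted p 0.051 to 0.13).

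Xbp1 mRNA (chr11:5520659-5525893, plus strand) stood at 470.2, 462.7 and 439.8 CPM with butyrate + IL-13, 436.6, 413.2 and 442.8 CPM with IL-13, 415.8, 394.3 and 392.1 CPM with butyrate, and 377.1, 406.3 and 392.9 CPM untreated. Among the 4 comparisons, IL-13 against untreated and butyrate + IL-13 against butyrate were free of overlap. Butyrate + IL-13 over butyrate was called at 0.19 ± 0.07 (edgeR adjusted p 0.034), but this turned to -0.04 when libraries were scaled by their totals alone (edgeR adjusted p 0.68) and was lost in 7 other alternatives, among them leaving out replicate 1 or 2 of the combined group, or replicate 2 or 3 of butyrate (edgeR adjusted p 0.052 to 0.078). The change with IL-13 over untreated was 0.14 ± 0.07 (edgeR adjusted p 0.13). DESeq2 called it at 0.15 (adjusted p 0.044), the authors' deposited table gives it an FDR of 0.0427, and library totals alone turned it to -0.03 (edgeR adjusted p 0.75). Its change with butyrate over untreated was 0.03 ± 0.07 (edgeR adjusted p 0.86), and -0.03 with library totals alone (edgeR adjusted p 0.82).

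Eif2ak3 (chr6:70844515-70905245, plus strand), which encodes PERK, stood at 38.9, 35.1 and 42.6 CPM with butyrate + IL-13, 44.6, 45.3 and 41.7 CPM with IL-13, 39.9, 36.8 and 37.2 CPM with butyrate, and 39.8, 40.2 and 33.4 CPM untreated. The IL-13 libraries were above the untreated ones, with a log2 fold change of 0.21 (95% interval 0.001 to 0.424, edgeR adjusted p 0.097). It was called in 1 of 21 alternatives, thinning to the lowest library total, at 0.25 (edgeR adjusted p 0.049). Butyrate over untreated gave 0.006 (95% interval -0.204 to 0.216, edgeR adjusted p 0.98).

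Ern2 (chr7:122169893-122186216, minus strand), which encodes IRE1-beta, a form of the sensor found in mucus-secreting epithelium, went the other way from Ern1. It stood at 4.59, 3.98 and 2.85 CPM with butyrate + IL-13, 11.8, 11.6 and 10.8 CPM with IL-13, 9.90, 9.46 and 9.23 CPM with butyrate, and 10.6, 13.3 and 16.1 CPM untreated, on 39 to 329 counts per library. The butyrate + IL-13 libraries were below all 9 others. Butyrate + IL-13 over IL-13 gave -1.58 ± 0.20 (edgeR adjusted p 2.2e-05) and butyrate + IL-13 over butyrate -1.33 ± 0.19 (edgeR adjusted p 1.8e-05). Neither agent alone passed the test, with -0.22 ± 0.17 for IL-13 (edgeR adjusted p 0.3) and -0.48 ± 0.17 for butyrate (edgeR adjusted p 0.091) over untreated. Without untreated replicate 1 the butyrate value was -0.62 (edgeR adjusted p 0.038).

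Ern2 was the only member of the 33 whose IL-13 effect differed with and without butyrate by the interaction test of the edgeR fit, at -1.11 ± 0.26 (adjusted p 0.048). Over all tested genes, 0.255% were called higher and 0.611% lower in the interaction. The Ern2 call was lost in 14 of 20 alternatives, with the adjusted p between 0.011 and 0.13 and the value between -1.26 and -0.92. Without the 2 libraries highest in Lars2 it was -0.94 (edgeR adjusted p 0.13), and without butyrate + IL-13 replicate 3 alone -0.92 (edgeR adjusted p 0.13).

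Marker genes of goblet cells moved beside Ern2. The 10 genes of that list, which include Ern2 and the mucus disulfide isomerase Agr2, summed to 2160 to 2211 CPM with butyrate + IL-13, 3555 to 4547 CPM with IL-13, 2690 to 3410 CPM with butyrate and 3546 to 5203 CPM untreated, and all 10 had counts in every group. Of the 10, 9 fell with butyrate + IL-13 over IL-13, and 8 fell and 1 rose with butyrate + IL-13 over butyrate. That was 90% and 80% lower, beside 11.3% and 24.9% of all tested genes. The interaction was called, and negative, for 4, or 40%, beside 0.611% of all tested genes. Ern2 itself is counted among the genes that fell and those with a called interaction. Paneth cell markers, 10 genes, summed to 1473 to 2188 CPM with butyrate + IL-13, 2868 to 3946 CPM with IL-13, 3711 to 4664 CPM with butyrate and 2354 to 3185 CPM untreated, with Defa17 at 0 counts in the combined group. Of 9 tested, 5 fell and 1 rose with IL-13 over untreated, with a median log2 fold change of -0.53. That was 55.6% lower and 11.1% higher, beside 21.7% and 21.8% of all tested genes. Ang4 averaged 2028 CPM with IL-13 and 544.5 CPM untreated, whereas Lyz1 averaged 234.8 and 842.8 CPM. With butyrate Lyz1 averaged 2101 CPM. Enteroendocrine and stem and cycling markers, whose sums are given beside the ATF4 branch, were lower with both agents too. All 5 enteroendocrine markers fell with butyrate + IL-13 over IL-13 and over butyrate, beside 11.3% and 24.9% of all tested genes. Of the 5 stem and cycling markers, 4 (80%) fell in each of these comparisons, counted separately. Lgr5 was not lower over IL-13, averaging 2.54 CPM with butyrate + IL-13, 1.76 CPM with IL-13 and 26.4 CPM with butyrate. With butyrate over untreated, all 5 enteroendocrine and 5 of the 10 goblet markers fell. That was 100% and 50%, beside 2.76% of all tested genes. Tuft cell markers, 5 genes, summed to 12.4 to 20.7 CPM with butyrate + IL-13, 58.3 to 67.3 CPM with IL-13, 6.23 to 10.5 CPM with butyrate and 13.7 to 21.3 CPM untreated. The part of these cell types in the Ern2 result was not tested.

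OASIS-family factors are membrane transcription factors cut in the Golgi like ATF6. They were listed together with other genes of the response, among them kinases, proteases and Wfs1. This mixed list held some genes that rose and some that fell. Of 18 tested, 4 rose and 4 fell with IL-13 over untreated, 2 rose with butyrate over untreated, 2 rose and 2 fell with butyrate + IL-13 over IL-13, and 4 rose and 6 fell with butyrate + IL-13 over butyrate. With IL-13 over untreated that is 22.2% in each direction, close to the 21.8% and 21.7% of all tested genes. With butyrate over untreated 11.1% were higher, beside 5.14% of all tested genes. With butyrate + IL-13 over IL-13, 11.1% moved in each direction, beside 9.85% higher and 11.3% lower. Over butyrate 22.2% were higher and 33.3% lower, beside 22.9% and 24.9%. Creb3l3, a factor of liver and gut that drives lipid and apolipoprotein genes, averaged 169.2 ± 44.4 CPM with butyrate + IL-13, 86.6 ± 10.1 with IL-13, 49.8 ± 12.7 with butyrate and 25.4 ± 1.96 untreated (SD, n = 3 each). It rose with IL-13 by 1.77 ± 0.18 and with butyrate by 0.97 ± 0.18 over untreated (edgeR adjusted p 2.9e-07 and 0.0016). Wfs1, an ER membrane protein that dampens ATF6, rose with IL-13 over untreated by 0.99 ± 0.11 (edgeR adjusted p 1e-06). Mbtps1, the site-1 protease that cuts ATF6, fell with IL-13 over untreated by 0.61 ± 0.09 on the log2 scale (edgeR adjusted p 1.8e-05).

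The chaperones and folding enzymes split by gene. Of 15 tested, 2 rose and 5 fell with IL-13 over untreated, 1 rose with butyrate over untreated, 2 rose and 1 fell with butyrate + IL-13 over IL-13, and 2 rose and 3 fell with butyrate + IL-13 over butyrate. The shares with IL-13 over untreated were 13.3% higher and 33.3% lower, beside 21.8% and 21.7% of all tested genes. With butyrate over untreated 6.67% were higher, beside 5.14% of all tested genes. With butyrate + IL-13 over IL-13, 13.3% were higher and 6.67% lower, beside 9.85% and 11.3% of all tested genes. Over butyrate 13.3% were higher and 20% lower, beside 22.9% and 24.9%. Their summed level ran from 4860 to 5226 CPM with butyrate + IL-13, 4507 to 4710 CPM with IL-13, 4710 to 4874 CPM with butyrate and 4482 to 4692 CPM untreated, so IL-13 and untreated libraries overlapped. Scaled by library totals alone, 11 of the 15 were called lower and 2 higher with IL-13 over untreated, and 11 lower and 1 higher with butyrate + IL-13 over butyrate.

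Hspa5 (chr2:34771970-34776531, plus strand) encodes BiP, the main Hsp70 of the ER and the usual readout of the unfolded protein response. It stood at 1295, 1159 and 1095 CPM with butyrate + IL-13, 1190, 1048 and 1107 CPM with IL-13, 965.9, 953.4 and 855.4 CPM with butyrate, and 776.4, 789.6 and 771.8 CPM untreated. All treated libraries were above the untreated ones, and the 2 groups with IL-13 overlapped. IL-13 over untreated gave 1.43-fold (log2 0.52 ± 0.08, edgeR adjusted p 6.3e-05), and butyrate + IL-13 over butyrate 1.28-fold (log2 0.36 ± 0.08, edgeR adjusted p 0.0017). Butyrate over untreated gave 0.25 ± 0.08 (edgeR adjusted p 0.078; 0.023 without butyrate replicate 3), and butyrate + IL-13 over IL-13 gave 0.09 (95% interval -0.087 to 0.259, edgeR adjusted p 0.5), which turned to -0.04 with library totals alone (edgeR adjusted p 0.78). With library totals alone the call over butyrate was lost (edgeR adjusted p 0.22).

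Dnajb9 (chr12:44205897-44210068, minus strand), the BiP cochaperone ERdj4 and a target of XBP1, was the chaperone that rose most. It stood at 91.7, 69.9 and 88.7 CPM with butyrate + IL-13, 63.5, 58.5 and 53.2 CPM with IL-13, 38.7, 42.1 and 32.8 CPM with butyrate, and 26.9, 26.1 and 23.5 CPM untreated. The 4 groups did not overlap. The change was 2.29-fold for IL-13 over untreated (log2 1.19 ± 0.12, edgeR adjusted p 2.7e-07), 1.48-fold for butyrate over untreated (log2 0.57 ± 0.12, edgeR adjusted p 0.0051), 1.43-fold for butyrate + IL-13 over IL-13 (log2 0.52 ± 0.12, edgeR adjusted p 0.004) and 2.20-fold for butyrate + IL-13 over butyrate (log2 1.14 ± 0.12, edgeR adjusted p 2.8e-07).

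The disulfide isomerases Pdia3, Pdia4 and Pdia6, the lectin chaperone Canx and the BiP cofactor Sdf2l1 fell with IL-13 over untreated. Pdia6 (chr12:17266545-17284770, plus strand), an isomerase that binds BiP and IRE1, stood at 59.2, 63.2 and 59.0 CPM with butyrate + IL-13, 66.0, 69.8 and 66.8 CPM with IL-13, 86.7, 78.9 and 86.1 CPM with butyrate, and 98.9, 96.1 and 104.3 CPM untreated. Its 4 groups did not overlap, in the reverse order to Trib3. The change with IL-13 over untreated was -0.56 ± 0.08 (edgeR adjusted p 1.4e-05) and butyrate + IL-13 over butyrate -0.47 ± 0.08 (edgeR adjusted p 8e-05). Butyrate over untreated gave -0.25 ± 0.08 (edgeR adjusted p 0.056), which was called in 4 of 21 alternatives at an adjusted p between 0.016 and 0.047.

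Pdia4 (chr6:47796142-47813512, minus strand), an isomerase with several thioredoxin-like domains, stood at 86.9, 73.7 and 78.7 CPM with butyrate + IL-13, 87.2, 81.2 and 87.7 CPM with IL-13, 109.6, 112.6 and 113.2 CPM with butyrate, and 129.6, 124.1 and 109.6 CPM untreated. The 6 libraries with IL-13 lay below the 6 without it. The log2 fold change was -0.51 ± 0.09 for IL-13 over untreated (edgeR adjusted p 0.00011) and -0.49 ± 0.09 for butyrate + IL-13 over butyrate (edgeR adjusted p 0.00014). With butyrate the test was not passed over untreated (-0.12 ± 0.08, edgeR adjusted p 0.48) or added to IL-13 (-0.10 ± 0.09, edgeR adjusted p 0.46).

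Sdf2l1 (chr16:17130138-17132383, minus strand), a cofactor of the BiP cycle, stood at 31.4, 36.6 and 40.7 CPM with butyrate + IL-13, 49.1, 49.98 and 48.9 CPM with IL-13, 51.0, 49.8 and 79.1 CPM with butyrate, and 69.4, 71.0 and 68.7 CPM untreated. Butyrate replicate 3 lay above the untreated libraries and the other 2 butyrate libraries below them. IL-13 over untreated gave -0.50 ± 0.14 (edgeR adjusted p 0.0074) and butyrate + IL-13 over butyrate -0.72 ± 0.14 (edgeR adjusted p 0.00041). Butyrate + IL-13 over IL-13 gave -0.44 ± 0.14 (edgeR adjusted p 0.035), a call lost without any of the 3 IL-13 libraries or without butyrate + IL-13 replicate 1 or 2 (edgeR adjusted p 0.07 to 0.14). Butyrate over untreated gave -0.22 ± 0.14 (edgeR adjusted p 0.39), and -0.47 without butyrate replicate 3 (edgeR adjusted p 0.0042).

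Canx and Pdia3, a lectin chaperone and the isomerase that works with it on glycoproteins, also fell with IL-13 over untreated, by 0.31 ± 0.10 and 0.22 ± 0.08 on the log2 scale (edgeR adjusted p 0.019 and 0.029). The Canx call was lost without untreated replicate 1, IL-13 replicate 1 or IL-13 replicate 2 (edgeR adjusted p 0.053 to 0.094). Butyrate + IL-13 over IL-13 gave Canx 0.27 ± 0.10 (edgeR adjusted p 0.064), without overlap of the groups, and this was called in 7 of 21 alternatives, among them RLE scaling and DESeq2 (adjusted p 0.045 and 0.033). The Pdia3 call was lost without any of the 3 untreated libraries or without IL-13 replicate 2 or 3 (edgeR adjusted p 0.062 to 0.11). P4hb, which encodes protein disulfide isomerase, averaged 1496 ± 55.1 CPM with butyrate + IL-13, 1244 ± 8.84 with IL-13, 1435 ± 26.8 with butyrate and 1310 ± 26.4 untreated (SD, n = 3 each). It rose with butyrate + IL-13 over IL-13 by 0.27 ± 0.07 (edgeR adjusted p 0.0095), a call lost with library totals alone (edgeR adjusted p 0.13). Over butyrate it gave 0.06 ± 0.07 (edgeR adjusted p 0.49), which turned to -0.17 with library totals alone (edgeR adjusted p 0.037).

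The remaining 7 chaperones and cochaperones, Hsp90b1, Hyou1, Dnajb11, Dnajc3, Manf, Creld2 and Calr, were not called in any comparison. Hsp90b1, the Hsp90 of the ER, averaged 299.1 ± 20.2 CPM with butyrate + IL-13, 300.3 ± 11.1 with IL-13, 338.2 ± 29.8 with butyrate and 342.5 ± 19.2 untreated (SD, n = 3 each). Its IL-13 and untreated libraries did not overlap, with -0.19 ± 0.08 for IL-13 over untreated (edgeR adjusted p 0.073), called in 4 of 21 alternatives at an adjusted p between 0.0019 and 0.047. Dnajc3, a cochaperone that also inhibits PERK, gave -0.19 ± 0.09 for IL-13 over untreated (edgeR adjusted p 0.092), again without overlap and called in 3 of 21 alternatives, and -0.22 ± 0.09 for butyrate + IL-13 over butyrate (edgeR adjusted p 0.052), called in 6. In the authors' deposited table of IL-13 against untreated, Hsp90b1 and Dnajc3 have FDRs of 0.0121 and 0.0404. Calr, which encodes calreticulin, averaged 610.7, 603.3, 566.0 and 603.2 CPM in the same groups. Markers of goblet, Paneth, enteroendocrine and stem and cycling cells have their sums given beside Ern2 and the ATF4 branch. Each sum was lower, without overlap, with butyrate + IL-13 than with butyrate, where Pdia4, Pdia6 and Sdf2l1 fell. With IL-13 over untreated, where these genes fell too, only the stem and cycling sum was lower without overlap. The goblet, Paneth and enteroendocrine sums overlapped there. By gene, 4 of the 10 goblet markers fell there and 1 rose. That was 40% and 10%, beside 21.7% and 21.8% of all tested genes. Zg16 averaged 80.0 CPM with IL-13 and 1075 CPM untreated, whereas Clca3 averaged 1417 and 461.9 CPM. The part of these cell types in the results for Pdia4, Pdia6 and Sdf2l1 was not tested.

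The ER stress response element (ERSE), which is bound by ATF6 with NF-Y, was looked for in the same promoter windows as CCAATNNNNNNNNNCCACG on either strand. It stood in 9 of the 30 member windows (30.0%), against 0.119% of all 32851 windows. Of these 9, 7 belonged to chaperones, which were 13 of the 29 members with a window. The members were picked as genes of this response, so the motif shares describe them and are not a test. The related ERSE-II, ATTGGNCCACG, stood in 6.67% of member windows, those of Herpud1 and Dnajb11, against 0.0365% of all windows. The core of the unfolded protein response element, TGACGTGG, was in 0 member windows and in 0.676% of all windows. The promoters of Hspa5 (chr2:34771840-34772139, plus strand) and Pdia6 (chr12:17266339-17266638, plus strand) are shown because both hold the ERSE, marked in capitals, while Hspa5 rose and Pdia6 fell with IL-13.
Hspa5: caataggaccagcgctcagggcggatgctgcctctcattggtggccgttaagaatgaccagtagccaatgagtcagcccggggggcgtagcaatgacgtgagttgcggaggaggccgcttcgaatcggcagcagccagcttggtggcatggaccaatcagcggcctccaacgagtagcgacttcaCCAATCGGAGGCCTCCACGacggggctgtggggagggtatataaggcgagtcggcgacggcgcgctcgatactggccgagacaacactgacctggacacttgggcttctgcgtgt
Pdia6: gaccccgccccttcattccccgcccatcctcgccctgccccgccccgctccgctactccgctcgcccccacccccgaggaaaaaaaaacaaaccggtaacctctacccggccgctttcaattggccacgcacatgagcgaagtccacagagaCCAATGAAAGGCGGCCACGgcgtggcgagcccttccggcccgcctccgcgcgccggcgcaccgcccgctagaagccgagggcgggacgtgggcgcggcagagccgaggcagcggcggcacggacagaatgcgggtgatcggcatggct

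The element lay 65 to 47 bases before the start in Hspa5 and 98 to 80 bases before it in Pdia6. The other members with it were Calr, Hsp90b1, Canx, Dnajc3, Creld2 and Syvn1, none of which was called higher in any of the 4 comparisons, and Derl3, which was not tested. A match is a run of letters and was not tested for binding.

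Among translocation and degradation genes, Sel1l, Edem1 and Derl1 rose and Sec61b fell with IL-13. Of 7 tested, 3 rose and 1 fell with IL-13 over untreated, 1 rose with butyrate over untreated, 2 rose with butyrate + IL-13 over IL-13, and 3 rose and 1 fell with butyrate + IL-13 over butyrate. The shares with IL-13 over untreated were 42.9% higher and 14.3% lower, beside 21.8% and 21.7% of all tested genes. With butyrate over untreated 14.3% were higher, beside 5.14% of all tested genes. With butyrate + IL-13 over IL-13, 28.6% were higher, beside 9.85%. Over butyrate 42.9% were higher and 14.3% lower, beside 22.9% and 24.9%. Sec61b (chr4:47474658-47483242, plus strand), a subunit of the translocation channel, stood at 7.83, 5.66 and 8.78 CPM with butyrate + IL-13, 7.72, 8.58 and 6.53 CPM with IL-13, 9.54, 7.59 and 10.25 CPM with butyrate, and 10.97, 10.29 and 12.3 CPM untreated. The untreated libraries lay above all others. The change with IL-13 over untreated was -0.55 ± 0.18 (edgeR adjusted p 0.017), a call lost without untreated replicate 3 or IL-13 replicate 3 (edgeR adjusted p 0.068 and 0.083).

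Sel1l, the scaffold of the HRD1 ubiquitin ligase, averaged 265.4 ± 17.5 CPM with butyrate + IL-13, 223.5 ± 2.07 with IL-13, 202.3 ± 8.82 with butyrate and 172.4 ± 8.58 untreated (SD, n = 3 each), and its 4 groups did not overlap. It rose with IL-13 over untreated by 0.37 ± 0.08 (edgeR adjusted p 0.00062) and with butyrate + IL-13 over butyrate by 0.39 ± 0.08 (edgeR adjusted p 0.00034). Edem1, a lectin that extracts misfolded glycoproteins, averaged 185.1 ± 15.5, 164.7 ± 8.30, 143.1 ± 4.92 and 127.8 ± 2.66 CPM in the same groups. It rose by 0.37 ± 0.08 with IL-13 over untreated (edgeR adjusted p 0.001) and by 0.37 ± 0.08 with butyrate + IL-13 over butyrate (edgeR adjusted p 0.00075). With library totals alone the calls over butyrate were lost for both genes (edgeR adjusted p 0.069 and 0.12).

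Derl1, a derlin of the retrotranslocation machinery, averaged 188.0 ± 4.68, 157.7 ± 5.60, 163.3 ± 0.736 and 133.4 ± 4.89 CPM in those groups. It was called higher in all 4 comparisons, with log2 fold changes of 0.20 to 0.29, and each call was lost in at least 1 alternative. Its change over butyrate turned to -0.03 with library totals alone (edgeR adjusted p 0.77). Syvn1, the HRD1 ligase itself, fell with butyrate + IL-13 over butyrate by 0.36 ± 0.11 on the log2 scale (edgeR adjusted p 0.0093), a call lost without butyrate + IL-13 replicate 1 (edgeR adjusted p 0.054). Syvn1 overlaps Mrpl49 on the opposite strand, so the note on strand for Ddit3 holds for it too. Herpud1 and Derl2 were not called in any comparison.

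**Figure D4:**
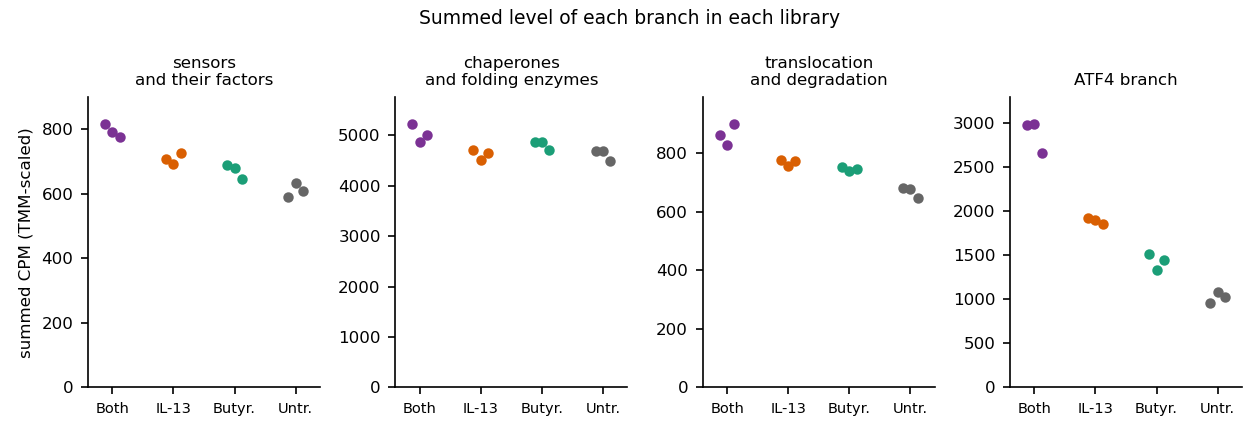
Summed CPM of each role group in each library, as points, for butyrate + IL-13, IL-13, butyrate and untreated enteroids. The ATF4 branch runs from 959.6 to 2992 CPM with 4 separate groups, whereas the chaperone sums run from 4482 to 5226 CPM and overlap between IL-13 and untreated libraries.

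The 4 groups fell in one order for several members. Of the 33 tested, 8 had every library with butyrate + IL-13 above every library with IL-13, those above every library with butyrate, and those above every untreated library, where 3.18% of all tested genes did so. These were Dnajb9, Sel1l, Edem1, Atf4, Ddit3, Trib3, Ppp1r15a and Asns. Pdia6 alone held the reverse order, where 2.70% of all tested genes did.

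The effect of IL-13 with butyrate present was set beside its effect without butyrate. The comparisons use different libraries, and the interaction tests their difference. Trib3 was higher with IL-13 by 1.49 ± 0.12 over butyrate and by 1.91 ± 0.12 over untreated, a difference of -0.42 (95% interval -0.78 to -0.06, edgeR adjusted p 0.35). Ddit3 gave 1.28 ± 0.10 over butyrate and 1.67 ± 0.10 over untreated, a difference of -0.39 (95% interval -0.69 to -0.09, edgeR adjusted p 0.28). Atf4 gave 0.87 ± 0.08 over butyrate and 0.66 ± 0.08 over untreated, a difference of 0.21 (95% interval -0.01 to 0.44, edgeR adjusted p 0.48). The intervals for Ppp1r15a, Asns and Chac1 each spanned 0. None of these 6 differences passed the adjusted threshold, and a missed threshold does not show that the effects were equal.

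**Figure D5:**
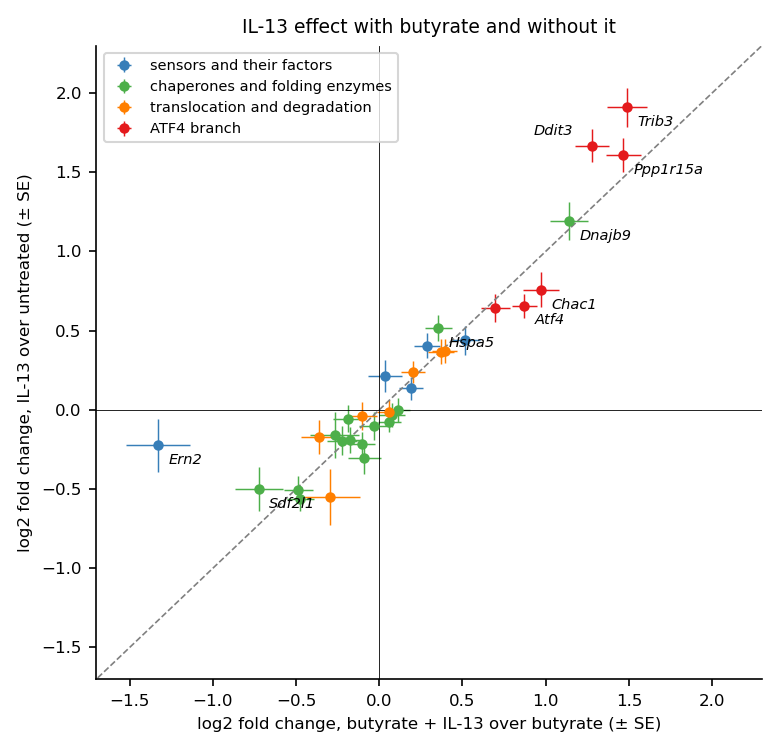
Each point is a tested member, with the log2 fold change of butyrate + IL-13 over butyrate across and of IL-13 over untreated up, and bars of 1 SE. On the dashed line both effects are equal. Ern2 lies far to the left of it at -1.33 across and -0.22 up, and the ATF4 branch lies near it in the upper right.

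Set per length of exon sequence, P4hb had the highest untreated level of all 34 members, at 457.9 CPM per kb, and Atf4 came next at 269.6 CPM per kb. With butyrate + IL-13, Atf4 was at 605.2 CPM per kb and P4hb at 523.1 CPM per kb. Trib3 held place 4 of 34 with butyrate + IL-13, at 228.4 CPM per kb, and place 15 untreated, at 33.1 CPM per kb. Ern2 was at 1.28 CPM per kb with butyrate + IL-13 and 4.49 CPM per kb untreated, above Derl3 alone in both.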

How the data were processed

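Counts per gene for 12 libraries of directional poly(A) RNA came from the authors' deposited table, on mm10 per the submitters' processing notes. The sources used here name neither an aligner nor a counter, and do not state whether strand entered the counting. Per the file headers, its rows are genes with a corrected p under 1 in the authors' DESeq comparison of untreated and IL-13 enteroids, so library totals cover these rows only. The deposited FDRs and log2 fold changes of that comparison are used for 1 side-by-side count. The deposited FDRs are also given for Xbp1, Hsp90b1 and Dnajc3.

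Of 18092 rows, 18068 genes remained after rows of 23 genes were summed. edgeR 4.0.16 (R 4.3.3) was run on the counts of all 12 libraries with TMM scaling, filterByExpr, which kept 13750 genes and left out 4318, and a robust quasi-likelihood fit with 1 coefficient per group. The biological coefficient of variation was 10.2% on 8 residual degrees of freedom. A call is a Benjamini-Hochberg adjusted p under 0.05 over all genes tested. Comparisons share libraries: each single agent is set against the same untreated samples, and the combined group against each agent. The script was tested on simulated data. Alternatives were DESeq2 1.42.0, other scalings and filters, thinning, a replicate block and leaving out libraries. Scaling by library total alone was added after seeing the data.

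Same-numbered libraries did not deviate together. In 18 pairs the correlation of deviations ran from -0.151 to 0.0965, and 0 exceeded 0.1, so the numbers were not used as pairs.

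The members and gene lists were chosen with earlier results of these data known. Values in every library were given for sensors, factors and Hspa5, and for members called in at least 1 comparison without overlap and with a log2 fold change of at least 0.5 in size.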

Additional observations from a re-analysis of the deposited data

Results flagged for a closer look

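Ern2 stood out because the test of whether the effect of IL-13 differed with and without butyrate passed its threshold, narrowly. The interaction was -1.107 on the log2 scale (95% interval -1.65 to -0.57, edgeR quasi-likelihood test, adjusted p 0.048 over all genes tested). The call was lost in 14 of 20 alternatives, among them RLE scaling (adjusted p 0.053), the replicate block (0.078) and leaving out the 2 libraries highest in Lars2 (0.13), with the same sign in all 20. Its mean was 3.81 ± 0.88 CPM with butyrate + IL-13, 11.4 ± 0.54 CPM with IL-13, 9.53 ± 0.34 CPM with butyrate and 13.3 ± 2.76 CPM untreated (SD, n = 3 each). The goblet, enteroendocrine and stem and cycling markers summed lower in the combined group as well, and their part in the result was not tested.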

How the results depend on the processing

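Of 62 member calls over the 4 pairwise comparisons, 43 held in all 21 alternatives and 19 were lost in at least 1, while 28 results that were not called became so in at least 1. Calls of the ATF4 branch held in every alternative except for Atf4 and Asns with butyrate over untreated. Scaling by library total alone moved the count of members called lower to 13 for IL-13 over untreated, 1 for butyrate over untreated, 5 for butyrate + IL-13 over IL-13 and 15 for butyrate + IL-13 over butyrate, where the count called higher moved to 8. In the last comparison 7 members took the other sign. Xbp1 at -0.038, P4hb at -0.17 and Derl1 at -0.026 were called on 1 of the scales, and Eif2ak3, Dnajb11, Calr and Herpud1 on neither. With this scaling the median log2 fold change of all genes was -0.18, -0.08, -0.14 and -0.27 in the 4 pairwise comparisons, in the order above. Members lower with butyrate over untreated numbered 1 with DESeq2 and 1 with a mean of at least 50 counts.

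For the interaction, DESeq2 called 245 genes, against 119 with edgeR. Its member count, and its count called lower, was 0 in place of 1 with RLE scaling, with a mean of at least 50 counts, with thinning to the lowest library total, on leaving out the 2 libraries highest in Lars2, and with the replicate block, where Ern2 had an adjusted p of 0.078. The cause was not tested. With the replicate block the members called numbered 19, 10, 13 and 20 in the 4 pairwise comparisons. The interaction with only the groups compared was not run, since it needs all 4.

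Leaving out each library in turn, IL-13 over untreated gave 4923 to 6473 genes and 16 to 20 members (12 to 13 higher, 4 to 7 lower). Butyrate over untreated gave 559 to 1395 genes and 7 to 14 members (7 to 12 higher, 0 to 2 lower). Butyrate + IL-13 over IL-13 gave 1935 to 3451 genes and 10 to 15 members (9 to 13 higher, 1 to 2 lower). Butyrate + IL-13 over butyrate gave 5586 to 6632 genes and 17 to 20 members (12 to 14 higher, 5 to 7 lower). The interaction gave 55 to 213 genes and 0 to 1 members, all lower. Depth limits Ern2, at 39 to 58 counts per library with butyrate + IL-13, and Derl3.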

Other observations

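Other folding enzymes of the ER held genes with large changes in both directions. Of 26 tested, 3 rose and 6 fell with IL-13 over untreated, and 3 rose and 10 fell with butyrate + IL-13 over butyrate, with medians of -0.12 and -0.09 on the log2 scale. With IL-13 over untreated 11.54% were higher and 23.08% lower, beside 21.8% and 21.7% of all tested genes. Over butyrate 11.54% were higher and 38.46% lower, beside 22.9% and 24.9%. Ero1l, the oxidase that recharges protein disulfide isomerase, averaged 663.7 ± 36.7 CPM with butyrate + IL-13, 418.5 ± 26.0 with IL-13, 219.9 ± 34.01 with butyrate and 115.6 ± 10.1 untreated (SD, n = 3 each). It rose with IL-13 by 1.86 ± 0.10 and with butyrate by 0.93 ± 0.10 over untreated on the log2 scale (edgeR adjusted p 1.5e-10 and 1.7e-05). Txndc5, a disulfide isomerase, averaged 104.1 ± 6.54, 201.9 ± 11.69, 292.0 ± 22.6 and 413.2 ± 39.6 CPM in the same groups, and fell with IL-13 by 1.03 ± 0.09 and with butyrate by 0.50 ± 0.09 over untreated (edgeR adjusted p 4.5e-08 and 0.0013). Agr2, the isomerase of mucin folding, averaged 9.14 ± 2.94, 43.3 ± 4.60, 143.5 ± 18.5 and 167.3 ± 29.3 CPM in those groups. Its IL-13 effect differed with and without butyrate by -2.03 ± 0.24 (edgeR adjusted p 0.00051). The goblet markers given beside Ern2, of which Agr2 is a member, moved with it, and their part was not tested.

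Genes of transport between the ER and the Golgi rose in larger number than they fell, with 13 higher and 4 lower of 32 for IL-13 over untreated and 15 higher and 4 lower for butyrate + IL-13 over butyrate. The first were 40.62% and 12.5%, beside 21.8% and 21.7% of all tested genes. The second were 46.88% and 12.5%, beside 22.9% and 24.9%. Surf4, a cargo receptor, averaged 837.4 ± 10.8 CPM with butyrate + IL-13, 693.3 ± 26.6 with IL-13, 522.6 ± 19.6 with butyrate and 473.7 ± 8.86 untreated, and rose with IL-13 over untreated by 0.55 ± 0.07 (edgeR adjusted p 4.9e-06). Kdelr3, a receptor that returns ER proteins from the Golgi, rose with IL-13 over untreated by 1.36 ± 0.17 (edgeR adjusted p 4.3e-06). Genes of ER entry, signal peptidase and glycosylation gave 3 higher and 9 lower of 34 with IL-13 over untreated, among them Rpn2 of the oligosaccharyltransferase at -0.45 ± 0.08 (edgeR adjusted p 3e-04). Other genes of ER-associated degradation gave 7 higher and 1 lower of 25, the lower one being Os9, a lectin, at -0.38 ± 0.09 (edgeR adjusted p 0.0017). For ER entry that was 8.824% higher and 26.47% lower, and for degradation 28% and 4%, beside 21.8% and 21.7% of all tested genes. The ER entry share lower and the degradation share higher were thus near those of all tested genes.

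In the authors' deposited table of IL-13 against untreated enteroids, 22 of the 33 members had an FDR under 0.05. All 19 members called here were among them, with the same sign.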
